A study of Rattus norvegicus with 12 samples.

Results

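In fibro-adipogenic progenitors of the rat soleus, 60 genes each took at least 1000 CPM, or 0.1% of a library, in every group of the study. They were chosen by their measured level: CPM is the count of a gene scaled to a library total of 1e+06 counts, and a gene was kept if the mean of the 2 libraries reached 1000 CPM in all 6 groups. The deposited table lists 32622 genes. Of these, 65 passed, and the 10 identifiers that the rule leaves out, 5 of which passed, were then removed. The 60 genes are 0.184% of the genes of the table and held 16.8% to 18.9% of the counts.

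The cells were primary cultures from soleus muscle of Rattus norvegicus, grown on dishes in a medium with serum. Control cells came from rats that were not suspended, and the other cells from rats after 7 or after 14 days of hindlimb suspension, in which the hind legs bear no weight. Each kind of cell was sequenced at day 0, in the subconfluent state before induction, and at day 3 of adipogenic induction with insulin, dexamethasone and 3-isobutyl-1-methylxanthine. This gives 6 groups of 2 libraries: control, 7-day and 14-day cells at day 0, and the same at day 3. Not given in the sources used here are the strain, age and sex of the animals, the number of animals behind a culture and whether replicates came from separate animals. All day 3 cells were induced, so added time in culture and induction cannot be told apart.

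Fibro-adipogenic progenitors are mesenchymal cells that lie between muscle fibres and can turn into fat cells or into matrix-producing fibroblasts. In the induction medium insulin acts on its own receptor and on that of insulin-like growth factor, dexamethasone activates the glucocorticoid receptor, and 3-isobutyl-1-methylxanthine blocks phosphodiesterases and so raises cyclic AMP. In sequencing of poly(A) RNA a small number of genes usually takes a large part of the reads, in cultured mesenchymal cells often genes of the translation machinery, the cytoskeleton and the extracellular matrix. Such a share is relative: when one abundant gene takes more of a library, all others take less of it. Which of the 60 genes belong to these classes could not be read here, because the deposited table gives Ensembl identifiers without names and 0 of its identifiers matched the RefSeq tables used. Genes are therefore described by their rank in mean CPM over the 6 groups, from rank 1 to rank 60, and 4 identifiers are printed. For the same reason the cell type of the cultures could not be checked by marker genes, and no sequence could be tied to a gene. The rank orders counts, not molecules, as a longer transcript yields more reads.

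Libraries held 15105521 to 21484885 counts, and 14930 to 15275 genes had at least 1 read. The smallest count of any of the 60 genes in any library was 15453, which gives a counting error of 0.804% at most if each count is 1 independent read. Even numbers were in excess among low counts in every library. If read pairs were counted as 2, totals and gene counts are inflated and the counting error is larger than given. Whether they were was not tested, but the calls were recomputed with halved counts. The coefficient of variation between the 2 libraries of a group, at the median of the 60 genes, ran from 1.06% in control cells at day 3 to 5.18% in 7-day cells at day 0. The 7-day libraries at day 0 thus stood farther apart than those of any other group, which bears on every comparison with them. The labels number the replicates without saying that they are separate cultures, so the p-values rest on a spread between libraries that may be technical alone.

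The threshold falls within a continuous range of levels. The 3 genes just inside it had a lowest group mean of 1004, 1022 and 1023 CPM, and the 3 just outside 989, 965 and 962 CPM. In all, 157 genes reached 1000 CPM in at least 1 group. Of these, 15 reached it in the 3 day 3 groups and in no day 0 group, and 12 in the 3 day 0 groups and in no day 3 group. A gene that fell below the threshold in any group is not among the 60. The choice thus leaves out genes that reached it in some groups and lay far below it in others.

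The 60 genes spanned about an order of magnitude in level. The gene of rank 1 stood at 11826 CPM on average over the groups, those of rank 2 and 3 at 9575 and 8584 CPM, and that of rank 60 at 1108 CPM. The 10 first genes together held 6.56% to 7.54% of the counts of a group. The highest group mean was 1.64 times the lowest at the median, under 1.5 times in 24 genes and at least 2 times in 19. Rank 9 had the narrowest range, with group means from 4024 to 4746 CPM. Its libraries held 4765 and 4727 CPM in control, 4129 and 4381 in 7-day and 4074 and 3974 in 14-day cells at day 0, and 4595 and 4469, 4641 and 4629, and 4522 and 4469 CPM in the same order at day 3. Rank 3 had the widest, an 11.6-fold range. The next widest was 3.16-fold, in the gene of rank 14.

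The share of the counts that the 60 genes held together was higher at day 3 than at day 0 in each kind of cell. In control cells it was 17.2% and 17.3% in the 2 libraries at day 0 and 17.9% and 17.8% at day 3. In 7-day cells it was 16.79% and 16.80% at day 0 and 18.4% and 18.2% at day 3, and in 14-day cells 17.72% and 17.70% at day 0 and 18.7% and 18.9% at day 3. The lowest day 3 library lay above the highest day 0 library, and no 2 groups overlapped. At day 0 the order was 7-day cells lowest, then control, then 14-day cells; at day 3 it was control lowest, then 7-day, then 14-day cells. The means were 17.3% ± 0.0849, 16.8% ± 0.00602 and 17.7% ± 0.0153 for control, 7-day and 14-day cells at day 0, and 17.9% ± 0.0721, 18.3% ± 0.160 and 18.8% ± 0.115 at day 3 (SD, n = 2). These levels chose the genes and are given as a description, without a test. The 5 genes that the rule left out held another 8.87% ± 0.229, 8.11% ± 0.544 and 9.10% ± 0.206 at day 0 and 7.07% ± 0.0590, 7.26% ± 0.201 and 10.2% ± 0.0712 at day 3, in the same order. They stood highest in 14-day cells at day 3. With them kept in, the share of control cells was lower at day 3 than at day 0, 24.9% against 26.1%. The part of these 5 genes in the changes of other shares was not tested.

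**Figure D1:**
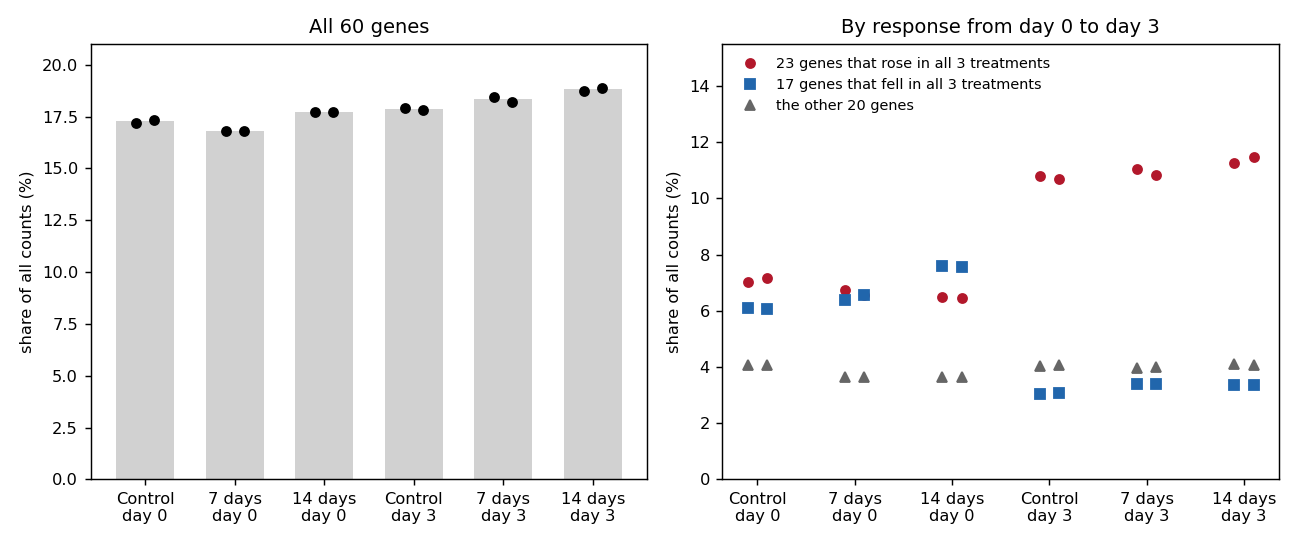
Share of all counts, in percent, in each of the 6 groups; each point is 1 library and each bar a group mean. Left, the 60 genes together, from 16.8% in 7-day cells at day 0 to 18.8% in 14-day cells at day 3; right, the 23 genes that rose and the 17 that fell from day 0 to day 3 in all 3 kinds of cell, and the other 20.

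Small net changes in the summed share hid larger gains and losses of single genes. Between day 0 and day 3 of control cells the 60 genes gained 0.585 percentage points of the counts, the balance of 3.90 points gained by 36 genes and a change of -3.32 points in the other 24. In 7-day cells 38 genes gained 4.69 points, the other 22 changed by -3.16 points and the net gain was 1.53. In 14-day cells 41 genes gained 5.36 points, the other 19 changed by -4.25 points and the net gain was 1.11. One gene, that of rank 3, accounted for -1.18, -1.16 and -1.67 points. Without it the other 59 genes gained 1.76, 2.69 and 2.77 points. Comparisons between kinds of cell on one day moved fewer points: gains summed to between 0.754 and 2.28 and losses to between -0.578 and -1.35.

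**Figure D2:**
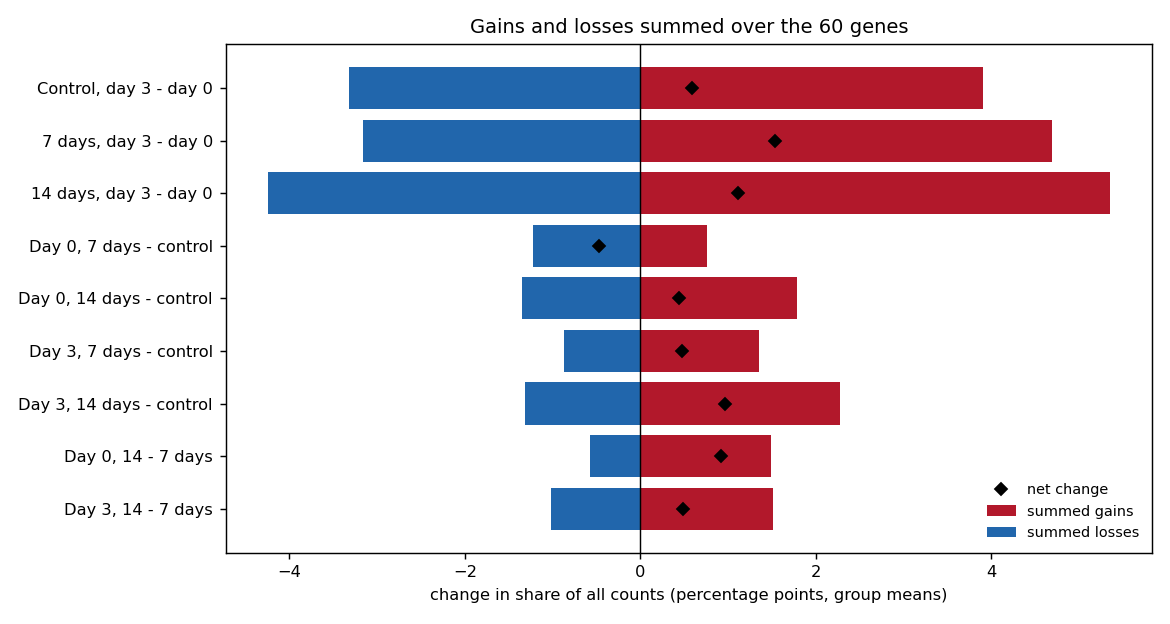
Gains, losses and net change of the share of all counts, in percentage points of group means, summed over the 60 genes for each of the 9 comparisons of groups. The 3 comparisons of day 3 with day 0 hold the longest bars, with gains of 3.90 to 5.36 points and losses of -3.16 to -4.25.

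Each gene was then tested for a change of its share, with edgeR's quasi-likelihood test on counts scaled to the total of the library and Benjamini-Hochberg adjustment over all 13215 genes tested; a gene rose or fell if its adjusted p was under 0.05. All 60 genes passed the filter on low counts. Because a share depends on all other genes, the number of genes called in each comparison is also given with TMM scaling, which sets the bulk of the genes to no change and so asks whether a gene moved relative to them. Against TMM, scaling to the total moved the median of all genes by -0.10 on the log2 scale in 14-day against control cells at day 3 and by -0.11 in 14-day against 7-day cells at day 3, and by less than 0.1 elsewhere.

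The first question was how the most counted genes responded to induction. In control cells 29 of the 60 rose from day 0 to day 3 and 23 fell, while 26.7% of all genes tested rose and 26.2% fell. TMM scaling gave the same 29 and 23 genes, against 25.8% and 26.8% of all genes. In 7-day cells 32 rose and 21 fell (all genes: 22.9% and 28.5%), and with TMM scaling 34 and 20 (24.8% and 26.9%). In 14-day cells 34 rose and 19 fell (24.5% and 31.2%), and with TMM scaling 38 and 17 (27.7% and 28.1%). More of the 60 were called than of all genes, but the sizes were alike. The median absolute log2 change was 0.40 in control, 0.44 in 7-day and 0.44 in 14-day cells, against 0.38, 0.37 and 0.41 over all genes. The value over all genes depends on the filter on low counts. In control cells it was 0.43 without a filter and 0.35 with at least 1 CPM in at least 4 libraries. The same limit applies to the median absolute differences given below. Called rises of at least 2-fold numbered 5, 7 and 8 of the 60 in control, 7-day and 14-day cells, against 7.06%, 6.24% and 7.42% of all genes. Called falls of at least 2-fold numbered 3, 4 and 5, against 9.93%, 9.64% and 10.9%. The median log2 change of the 60 was 0.07, 0.17 and 0.22, that of all genes 0.01, -0.04 and -0.05.

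The direction of the response was mostly shared. In all 3 kinds of cell 23 of the 60 genes rose (14.2% of all genes tested) and 17 fell (18.3%); with TMM scaling these numbers were 25 (15.1%) and 16 (17.4%). The 23 genes that rose held 7.03% and 7.16% of the counts in the control libraries at day 0 and 10.8% and 10.7% at day 3. In 7-day cells they went from 6.75% and 6.58% to 11.1% and 10.8%, and in 14-day cells from 6.49% and 6.47% to 11.3% and 11.5%. The 17 that fell held 6.09% and 6.08%, 6.39% and 6.56%, and 7.60% and 7.57% at day 0, and 3.05% and 3.06%, 3.41% and 3.38%, and 3.37% and 3.36% at day 3. In both sets the groups of the 2 days did not overlap, as the choice of the genes by these tests fixes. Of the other 20 genes, 13 rose in some and fell in none, 3 fell in some and rose in none, and 4 rose in one kind of cell and fell in another. Together these 20 held 4.08% and 4.08% of the counts at day 0 and 4.05% and 4.06% at day 3 in control cells. Their share was higher at day 3, without overlap, in 7-day cells, from 3.65% and 3.66% to 3.976% and 3.997%, and in 14-day cells, from 3.63% and 3.66% to 4.10% and 4.06%. These 20 were sorted by the same tests, so the rise of their share is not independent of the sorting. No gene of the 60 was without a call in the 3 responses. The responses share no library, and over the 60 genes Pearson's r between the log2 changes was 0.96 for control with 7-day, 0.93 for control with 14-day and 0.96 for 7-day with 14-day cells, against 0.79, 0.72 and 0.81 over 13215 genes. The gene of rank 3 changed far more than the others. Spearman's correlation over the 60, which uses only the order of the changes, was 0.93, 0.87 and 0.94. Genes are not independent replicates, and the 60 have far more reads than most, so these values are descriptions.

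**Figure D3:**
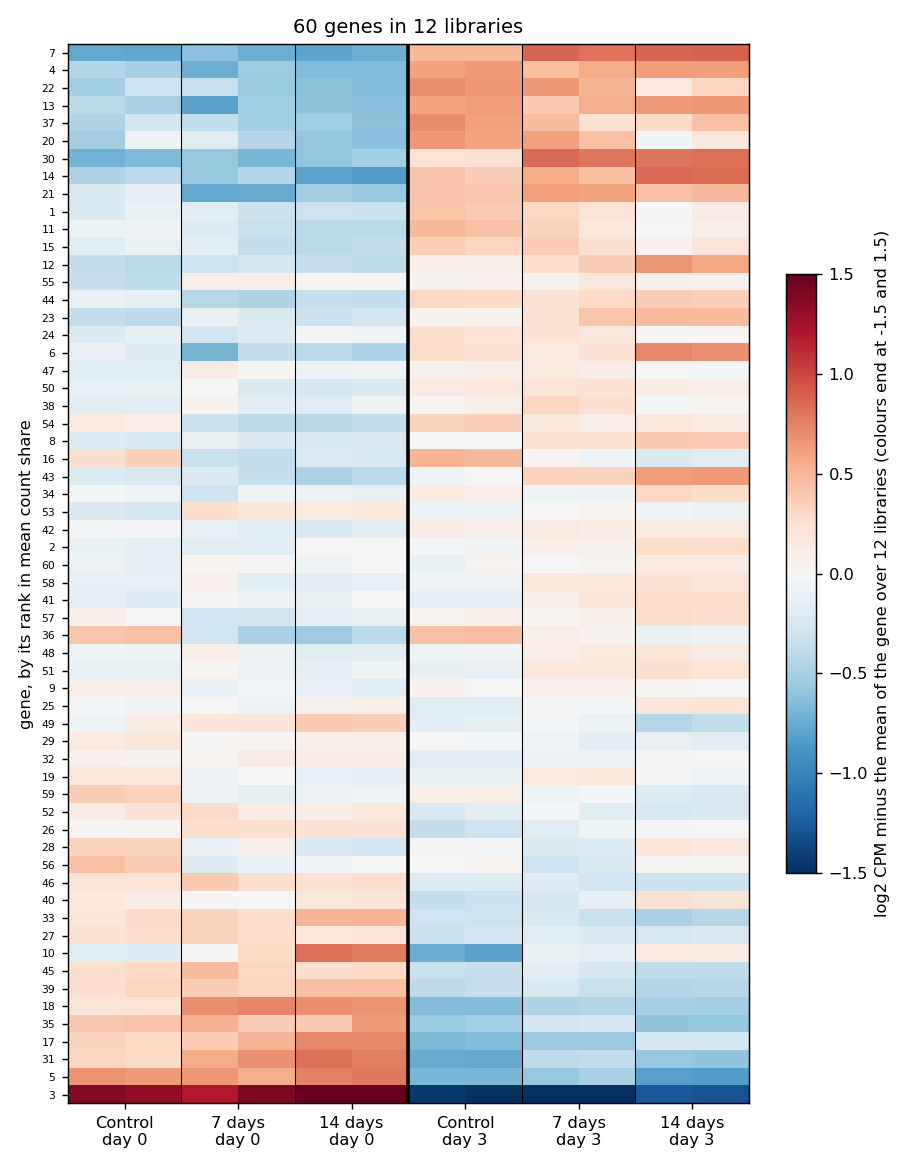
Level of the 60 genes in the 12 libraries as log2 CPM minus the mean of the gene over all libraries; rows are labelled by rank and ordered by how control cells changed with induction, and columns are the 2 libraries of each group. The thick line parts day 0 from day 3, across which 23 genes rose and 17 fell in all 3 kinds of cell.

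The largest fall was that of ENSRNOG00000045829, of rank 3. It held 13886 and 13488 CPM in the control libraries at day 0, 12329.8 and 14104 in 7-day cells and 19204 and 18500.4 in 14-day cells. At day 3 it held 1967 and 1906 CPM in control, 1617 and 1636 in 7-day and 2217 and 2154 in 14-day cells. It was thus the most counted of the 60 in every group at day 0 and stood between place 31 and place 40 at day 3. It fell in all 3, with a log2 change of -2.82 in control cells (SE 0.05, adjusted p = 2.46e-34), -3.02 in 7-day cells (SE 0.05, adjusted p = 4.44e-35) and -3.11 in 14-day cells (SE 0.05, adjusted p = 1.43e-35). The 14-day libraries were above all others at both days, with a log2 difference from control of 0.46 at day 0 (SE 0.04, adjusted p = 1.04e-10) and 0.17 at day 3 (SE 0.04, adjusted p = 0.00191). The 7-day cells were lower than control at day 3, with a log2 difference of -0.25 (SE 0.04, adjusted p = 4.05e-05), while at day 0 their libraries lay on either side of the control libraries (adjusted p = 0.451).

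The largest rise of control cells was that of ENSRNOG00000004554, of rank 7. Its libraries held 2556 and 2551 CPM in control, 2839 and 2633 in 7-day and 2531 and 2631 in 14-day cells at day 0. At day 3 they held 6136 and 6123 CPM in control, 7965 and 7649 in 7-day and 7988 and 8066 in 14-day cells. Day 0 groups lay close together, and neither unloaded group differed from control by the test (adjusted p = 0.0751 after 7 days and 0.867 after 14 days). At day 3 both unloaded groups lay above control, by 0.35 (SE 0.04, adjusted p = 1.65e-08) and 0.39 (SE 0.04, adjusted p = 8.40e-10) on the log2 scale. The rise from day 0 to day 3 was 1.26 in control (SE 0.04, adjusted p = 5.12e-25), 1.51 in 7-day (SE 0.04, adjusted p = 2.30e-27) and 1.64 in 14-day cells (SE 0.04, adjusted p = 1.70e-28).

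Other genes among the first ranks also changed place between the days. The gene of rank 1 held 9888 and 10802 CPM in control, 10352 and 9285 in 7-day and 9346 and 9296 in 14-day cells at day 0, and 15522 and 15116, 14463 and 13446, and 11746 and 12648 CPM at day 3. It was the most counted of the 60 in each group at day 3. Rank 4 held 5252 and 5035, 4282 and 4938, and 4538 and 4545 CPM at day 0 and rose to 10802 and 11112, 9776 and 10449.6, and 11038 and 10988 CPM at day 3. It had the largest gain in share from day 0 to day 3 in each kind of cell, 0.581, 0.550 and 0.647 percentage points. Rank 5 went the other way, from 10582 and 10363, 10447 and 9718, and 11182 and 11450.1 CPM to 4115 and 4135, 4487 and 4754, and 3782 and 3726 CPM. Its log2 change was -1.34 in control, -1.13 in 7-day and -1.59 in 14-day cells, all called.

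**Figure D4:**
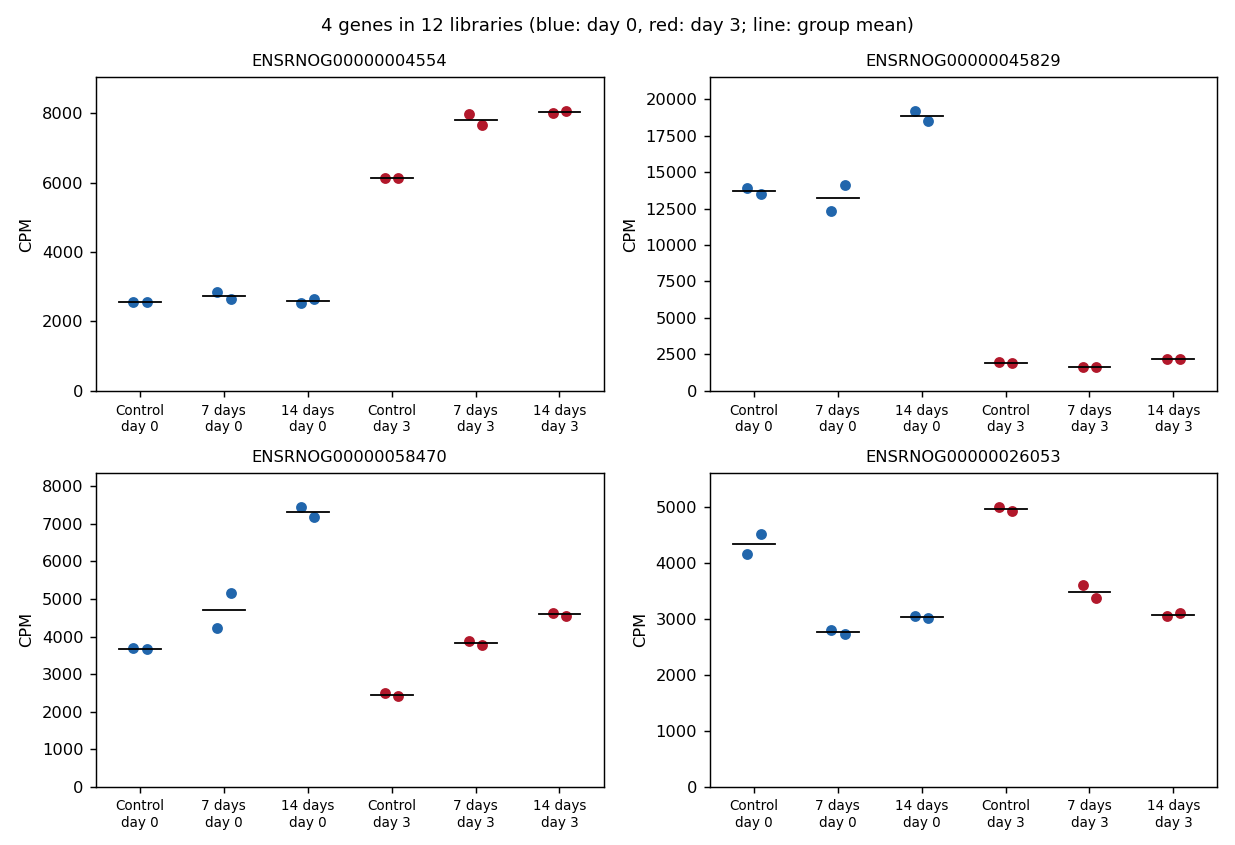
CPM of the 4 printed genes in each library (points, blue for day 0 and red for day 3) with group means (lines); all axes start at 0. ENSRNOG00000045829 lies between 12329.8 and 19204 CPM at day 0 and between 1617 and 2217 at day 3, and ENSRNOG00000026053 lies lower in the 8 libraries of unloaded rats than in the 4 control libraries.

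The next comparison set cells of unloaded rats at day 0 against control cells. After 7 days of unloading 14 of the 60 genes were higher than in control cells at day 0 and 19 lower, with 15.0% and 8.88% of all genes tested. With TMM scaling 8 were higher and 22 lower (all genes: 11.7% and 11.3%), so that the split into higher and lower calls depends on the scaling. The median log2 difference of the 60 was -0.01, or -0.06 with TMM scaling. Their median absolute log2 difference was 0.14, against 0.20 over all genes. None of the 60 reached a 2-fold difference. The gene of rank 36 lay farthest below control: its libraries held 2371 and 2407 CPM in control, 1448 and 1271 in 7-day and 1225 and 1338 in 14-day cells at day 0, and 2405 and 2433, 1902 and 1834, and 1657 and 1682 CPM at day 3. Both unloaded groups were below control at both days without overlap, by -0.81 (SE 0.05, adjusted p = 1.74e-15) and -0.90 (SE 0.05, adjusted p = 7.77e-17) on the log2 scale at day 0. Rank 18 lay farthest above control after 7 days: its libraries held 3695 and 3699 CPM in control, 5214 and 5332 in 7-day and 5227 and 5150.3 in 14-day cells at day 0, a log2 difference of 0.51 (SE 0.04, adjusted p = 5.66e-13) after 7 days.

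At day 0, 14 days of unloading left 16 of the 60 above control and 23 below it, against 6.55% and 10.6% of all genes. With TMM scaling 18 were higher and 20 lower (7.85% and 8.89%), and with DESeq2 19 and 16. The median log2 difference was -0.01, or 0.03 with TMM scaling. The median absolute log2 difference was 0.18, against 0.17 over all genes. The 60 genes together gained 0.442 points of the counts on control cells, and 0.517 points of the gains came from the gene of rank 3. After 7 days the net change was -0.473 points, made of 29 gains and 31 losses, with no single loss beyond -0.157. The 7-day and 14-day comparisons share the control libraries, so their calls are not independent of each other.

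Before induction the gene farthest above control after 14 days was ENSRNOG00000058470, of rank 10. It held 3687 and 3656 CPM in control, 4239.8 and 5153 in 7-day and 7462 and 7191 in 14-day cells at day 0, and 2501 and 2413, 3887 and 3780.0, and 4630.5 and 4553 CPM at day 3. At both days the 3 groups were ordered control, 7 days, 14 days without overlap. Against control the log2 difference was 0.36 after 7 days (SE 0.05, adjusted p = 1.29e-06) and 1.00 after 14 days (SE 0.05, adjusted p = 1.00e-17) at day 0. At day 3 it was 0.64 (SE 0.05, adjusted p = 1.79e-12) and 0.90 (SE 0.05, adjusted p = 8.77e-17), the largest rise of the 60 in either comparison. In the direct comparison 14-day cells were above 7-day cells by 0.64 at day 0 (SE 0.05, adjusted p = 4.62e-12) and by 0.26 at day 3 (SE 0.05, adjusted p = 0.000186). From day 0 to day 3 it fell in all 3 kinds of cell, with log2 changes of -0.58, -0.29 and -0.67 in control, 7-day and 14-day cells.

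After induction, 7-day cells had 21 of the 60 genes higher than control cells and 11 lower, against 7.07% and 7.08% of all genes, and TMM scaling gave the same 21 and 11 (6.75% and 7.43%). Without the first control library at day 3 the 11 became 7. The median log2 difference was 0.08, that of all genes 0.01. The median absolute log2 difference was 0.14, that of all genes 0.16. In 14-day cells 26 were higher and 15 lower, against 10.0% and 23.2% of all genes, and with TMM scaling 33 and 9 (16% and 15.3%). Their median log2 difference was 0.04, or 0.15 with TMM scaling, where that of all genes was -0.08 and 0.02. Their median absolute log2 difference was 0.20, that of all genes 0.25. Scaled to the total, then, the 60 were called higher more often than lower while all genes were called lower more often than higher. The summed share stood 0.475 points above control after 7 days and 0.965 points above it after 14 days. The largest single gain after 14 days was 0.224 points, that of the gene of rank 6, and the largest loss -0.312 points, that of the gene of rank 1.

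At day 3 the gene farthest below control was ENSRNOG00000026053, of rank 16. It held 4162 and 4517 CPM in control, 2801 and 2731 in 7-day and 3055 and 3014 in 14-day cells at day 0, and 5015 and 4937, 3605 and 3385, and 3050.1 and 3107 CPM at day 3. All 8 libraries of unloaded rats lay below all 4 control libraries. The log2 difference from control at day 3 was -0.51 after 7 days (SE 0.04, adjusted p = 5.64e-12) and -0.69 after 14 days (SE 0.04, adjusted p = 8.44e-16), and at day 0 -0.65 (SE 0.04, adjusted p = 1.30e-14) and -0.52 (SE 0.04, adjusted p = 4.37e-12). It rose from day 0 to day 3 by 0.20 in control cells (SE 0.04, adjusted p = 0.000184) and by 0.34 in 7-day cells (SE 0.04, adjusted p = 2.29e-08). In 14-day cells its 4 libraries held between 3014 and 3107 CPM, a log2 change of 0.02 (SE 0.04, adjusted p = 0.704).

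Differences from control at day 0 were in part found again at day 3, in other libraries. Over the 60 genes the log2 differences of the 2 days correlated at r = 0.63 for 7-day and 0.44 for 14-day cells, against 0.43 and 0.19 over 13215 genes. These are descriptions over genes, which are not replicates. Whether the libraries of the 2 days came from separate animals is not given, so this is no independent repeat.

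The unloading periods were also compared with each other. At day 0, 14 of the 60 genes were higher and 10 lower after 14 than after 7 days, against 3.00% and 11.5% of all genes. With TMM scaling 20 were higher and 2 lower (5.47% and 6.26%). The median absolute log2 difference of the 60 was 0.10, that of all genes 0.17. These 24 calls depended on single libraries. Leaving out either 14-day library of day 0 gave 13 calls, and leaving out the second 7-day library gave 39. The 10 lower calls became 3 or 4 when the first or second 14-day library was left out, and 5 or 23 when the first or second 7-day library was. The 14 higher calls became 9 when the second 14-day library was left out. The genes of rank 10 and rank 3 had the largest differences, the latter with a log2 difference of 0.51 (SE 0.04, adjusted p = 2.08e-11). At day 3, 19 were higher and 21 lower, against 5.59% and 19.6% of all genes, and with TMM scaling 29 and 6 (11.6% and 11%). The median absolute log2 difference of the 60 was then 0.17, that of all genes 0.21. Leaving out the first 7-day or the first 14-day library of day 3 turned the 21 lower calls into 11 and the 40 calls in all into 26. Whether more of these genes are lower or higher after 14 days thus depends on the scaling, and the split cannot be read without it. The summed share of the 60, computed on the total count alone, was higher after 14 than after 7 days, by 0.915 points at day 0 and 0.490 at day 3. At day 0 the gene of rank 3 alone gained 0.564 points.

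One gene that stood apart in 14-day cells after induction was that of rank 6. It held 4683 and 4421 CPM in control, 3114 and 3948 in 7-day and 3823 and 3637 in 14-day cells at day 0, where the 7-day libraries lay far apart. At day 3 it held 6129 and 5898, 5519 and 5884, and 8348 and 8163 CPM. The 14-day libraries were above the other 4 at day 3, by a log2 difference of 0.46 from control (SE 0.06, adjusted p = 6.16e-08) and 0.53 from 7-day cells (SE 0.06, adjusted p = 5.15e-09).

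Finally, the response itself was compared, as the log2 change with induction in unloaded cells less the one in control cells. After 7 days of unloading the response was more positive than in control cells in 16 of the 60 genes and more negative in 5, against 3.87% and 6.99% of all genes. With TMM scaling the numbers were 24 and 3 (4.70% and 5.68%). The 5 became 3 without the first or without the second control library at day 3. After 14 days it was more positive in 27 and more negative in 13, against 8.23% and 14.1% of all genes, and with TMM scaling in 32 and 9 (11% and 10.9%). The median log2 difference of the responses was 0.09 after 7 days and 0.13 after 14 days, against -0.04 and -0.04 over all genes, and 0.13 and 0.20 with TMM scaling. The median absolute difference of the responses was 0.14 after 7 days and 0.25 after 14 days, against 0.22 and 0.28 over all genes. Both comparisons use the same control libraries.

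The genes with a different response were then split by their own calls. Of the 27 with a more positive response 15 rose in both kinds of cell, 7 were called in 14-day cells alone, 3 in control cells alone and 2 went opposite ways. Of the 13 with a more negative response 7 fell in both, 1 rose in both, 4 were called in control cells alone and 1 went opposite ways. After 7 days, of the 16 more positive ones 7 rose in both, 4 fell in both by less, 3 were called in 7-day cells alone, 1 in control cells alone and 1 went opposite ways, and of the 5 more negative ones 2 fell in both, 2 were called in control cells alone and 1 went opposite ways. With TMM scaling these splits moved. After 14 days, of 32 more positive ones 16 rose in both, 2 fell in both, 7 were called in 14-day cells alone, 4 in control cells alone and 3 went opposite ways. Of 9 more negative ones 6 fell in both, 2 rose in both, 1 went opposite ways and 0 were called in control cells alone. After 7 days, 12 of 24 more positive ones rose in both, 4 fell in both, 4 were called in 7-day cells alone, 3 in control cells alone and 1 went opposite ways. Of 3 more negative ones 1 fell in both, 1 was called in control cells alone and 1 went opposite ways.

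The gene of rank 43 had the largest difference of response after 14 days. It held 1287 and 1251 CPM in control, 1269 and 1163 in 7-day and 1072 and 1113 in 14-day cells at day 0, and 1409 and 1476, 1869.9 and 1870.1, and 2290.4 and 2307 CPM at day 3. Its log2 change was 0.19 in control, 0.62 in 7-day and 1.07 in 14-day cells, a difference from control of 0.44 (SE 0.07, adjusted p = 6.06e-06) after 7 days and 0.89 (SE 0.07, adjusted p = 2.45e-13) after 14 days. In the gene of rank 14 the 14-day cells started lower, with 2013 and 1937 CPM against 2537 and 2640.1 in control cells, and ended higher, with 6274 and 6198.5 against 4651 and 4487. The 7-day libraries of that gene held 2343 and 2554 CPM at day 0 and 5110 and 4728 at day 3. Its difference of response was 0.84 after 14 days (SE 0.06, adjusted p = 4.57e-13) and 0.19 after 7 days (SE 0.06, adjusted p = 0.0513), the latter 0.23 and called with TMM scaling (adjusted p = 0.0157).

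The largest difference of response after 7 days was that of the gene of rank 21. It held 2408 and 2559 CPM in control, 1642 and 1655 in 7-day and 1958 and 1897 in 14-day cells at day 0. At day 3 it held 3758 and 3726, 4302 and 4238, and 3795 and 3939 CPM. The 7-day cells thus went from the lowest group to the highest, a difference of response of 0.78 (SE 0.06, adjusted p = 1.20e-12).

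**Figure D5:**
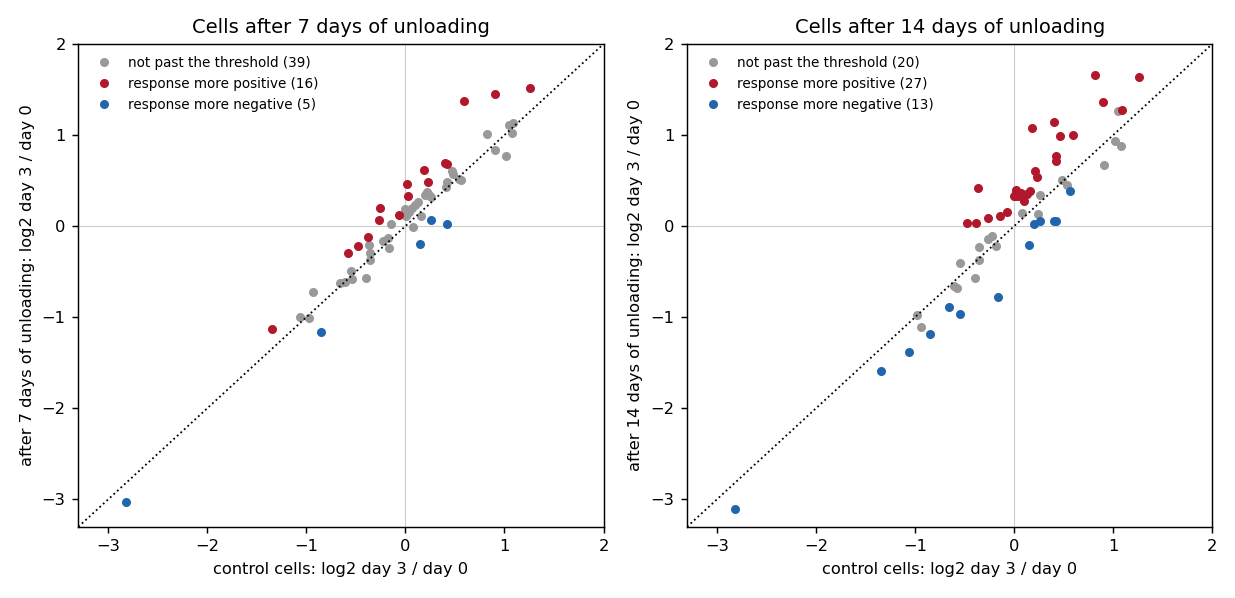
Log2 change from day 0 to day 3 of the 60 genes in control cells (horizontal) against cells after 7 days (left) and 14 days (right) of unloading, scaled to the total count; the dotted line marks equal change and colours mark genes whose response differed by the test. After 7 days 16 genes lie above and 5 below the line by the test, after 14 days 27 and 13.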

How the data were processed

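Poly(A) RNA of 12 libraries was prepared with a stranded mRNA kit and sequenced, per the labels. The authors deposited raw counts per Ensembl gene; per the submitters' processing notes the build was Rnor_6.0 and the tools included STAR 2.7, featureCounts 1.6.4, FastQC 0.11.9 and DESeq2. Their settings and the strand rule are not given here, so reads of overlapping or near-identical genes are uncertain. Of counts between 1 and 20, even numbers made up 68.3% to 70.6% by library, which may mean that a read pair was counted as 2; halved counts were tried.

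The genes and lists were chosen with earlier results of these data known. Symbol lists and marker lists had been drawn up but could not be used without names, so none of them gives a result. The rule for named genes could not be applied either: 2 identifiers that rose and 2 that fell are printed, the largest called rise and fall, without overlap between libraries, in the induction of control cells and in 14-day against control cells at day 3. Genes shown by rank alone were picked after their values were seen.

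Counts were fitted with edgeR 4.0.16 in R 4.3.3 (filterByExpr, glmQLFit, glmQLFTest) in 1 fit of 6 group means with 6 residual degrees of freedom, with the total count as library size, since a share of counts was described; 9 comparisons and 2 response differences were each adjusted over 13215 genes at 0.05. Log2 values are fitted, with SE taken from the test statistic. The test was checked on simulated counts. Paired libraries of a group stood farther apart than sampling noise (chi-square per degree of freedom 2.72 to 7.70 over genes with at least 40 reads in the pair) and count as 2 libraries. Over the most counted genes described above, this value was higher, from 16.4 in control cells at day 3 to 230 in 7-day cells at day 0. TMM, DESeq2 1.42.0, other filters, denominators and rules, and each library left out were tried. Counting errors cover single reads only.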

Additional observations from a re-analysis of the deposited data

Results flagged for a closer look

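These results are listed because the change from day 0 to day 3 was not the same after unloading as in control cells, by edgeR's quasi-likelihood test of the difference. Of the 60 genes, 21 differed in response after 7 days of unloading, 16 with a more positive and 5 with a more negative response, against 3.87% and 6.99% of all genes. After 14 days 40 did, 27 and 13, against 8.23% and 14.1%. With TMM scaling the totals were 27 and 41. ENSRNOG00000004554 rose further in unloaded cells, by a log2 difference of 0.25 after 7 days (adjusted p = 0.00251) and 0.37 after 14 days (adjusted p = 4.16e-06). ENSRNOG00000045829 fell further, with differences of -0.20 (adjusted p = 0.0284) and -0.29 (adjusted p = 0.000550). With TMM scaling its 7-day difference was -0.16 and did not pass (adjusted p = 0.108). ENSRNOG00000058470 fell less after 7 days, with a difference of 0.29 (adjusted p = 0.00647), while its 14-day difference was -0.09 (adjusted p = 0.397). Its 7-day libraries at day 0 lay far apart, at 4239.8 and 5153 CPM, and the difference without either is not given here. ENSRNOG00000026053 rose in control cells and its response was smaller after 14 days, with a difference of -0.18 (adjusted p = 0.0314), or -0.11 with TMM scaling (adjusted p = 0.219). Groups of 2 libraries are too small to tell an outlying library.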

How the results depend on the processing

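Calls of the 60 genes were stable in number: 86 of 88 counts stayed within 1.5 times under TMM, DESeq2, a denominator without the 60 genes, no filter, a filter of 1 CPM in 4 libraries, halved counts, a fit of the groups compared alone and a replicate block. The exceptions come from the fit of the groups compared alone, which has fewer samples: 21 calls for 7-day against control and 14 for 14-day against 7-day cells at day 0. The split into higher and lower did move with scaling, as given beside each count. DESeq2 gave 19 higher and 16 lower for 14-day against control cells at day 0 and 29 and 3 for 14-day against 7-day cells at day 3. A stable number need not mean the same genes. In 14-day against 7-day cells at day 3 TMM scaling lost 15 lower calls and added 10 higher ones, while in the induction of control cells no call changed. With 1 library left out the calls of 14-day against 7-day cells ranged from 13 to 39 at day 0 and from 26 to 44 at day 3. The 4 comparisons by which the printed genes were chosen kept direction and call in all 32 recomputations with 2 libraries per group. They kept direction in all 48 with 1 library left out. These genes were chosen for the largest called changes in the same libraries, so this is no independent support. The response differences of these genes were recomputed too, but only values with TMM scaling are given here.

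With a replicate block, calls for control cells, day 3 against day 0, numbered 52 and for 14-day against 7-day cells at day 0 19, and no total of calls moved by 1.5 times. The numbers share no stated source, and deviations of same-numbered libraries correlated between -0.10 and 0.05 over 10619 genes. Over the 60 genes alone they ran from -0.72 to 0.81.

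A threshold of 500 CPM kept 159 genes, with 26.0%, 25.7% and 26.6% of the counts (control, 7-day, 14-day) at day 0 and 26.5%, 27.2% and 27.8% at day 3. One of 2000 CPM kept 21, with 9.29%, 9.08% and 9.53%, then 10.6%, 10.9% and 11.4%. With the dropped genes kept in, shares were 26.1%, 24.9% and 26.8%, then 24.9%, 25.6% and 29.0%, so that control cells were then lower at day 3 than at day 0. At least 1000 CPM in each library kept 59 genes and gave 17.1%, 16.7% and 17.6%, then 17.7% and, in 14-day cells, 18.7%. The rule on TMM-scaled CPM kept 59 genes, which held 17.1%, 16.7% and 17.6% of the unscaled counts, then 17.7% and, in 14-day cells, 18.6%. Without the second 14-day library of day 0 the rule kept 59 genes, which held 17.6% in the library left. A total without mitochondrial transcripts was not run, as these could not be identified.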
